A study of Danio rerio with 4 samples.

Results

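The genes described here are the cytokines and chemokines, their receptors, and the JAK-STAT, SOCS and NF-kB genes that carry and restrain their signals, compared between the zSP and zMP cells of the adult zebrafish kidney, where blood forms in this fish. Members were chosen by their gene symbol, with earlier results of these data known. The families were cxcl, cxcr, ccl, ccr, ackr, il, tnf, csf, socs, cish, stat, jak, tyk2, nfkb and rel. Each gene was taken on the probe set with the highest mean among those annotated to that gene only. This gave 48 of the 8796 genes measured. They were 15 ligands, 11 receptors, 7 kinases and transcription factors, 9 inhibitors and 6 genes with a tnfaip symbol, grouped as TNF induced. Cells of both groups were stained with Hoechst, a DNA dye that membrane transporters can expel, and lay in the gate for small cells of low granularity, where lymphocytes are found. zSP is the dimly stained side population and zMP the main population of the same gate, and neither the strain nor the sex of the fish is given in the labels. Per the labels, 20 adult fish went into 3 sorts, the lysates were combined by population, and each RNA pool was divided between 2 arrays. Each population is therefore 1 pool of many animals, the spread between its arrays is technical, and no test between the populations is possible.

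Cytokines and chemokines are secreted proteins through which cells signal to each other. Many interleukin and colony stimulating factor receptors have no enzyme of their own and work through bound JAK kinases, which activate STAT transcription factors. STATs switch on genes of the SOCS family, whose proteins bind receptors and JAKs and shut the signal down. TNF and many interleukins act through NF-kB instead, a group of transcription factors that IkB proteins hold in the cytoplasm and whose targets include the IkB genes. Chemokines act on G protein-coupled receptors, and the pair Cxcl12 and Cxcr4 is known for keeping blood stem cells in their niche.

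Values are log2 expression levels made with RMA, and differences are the zSP mean minus the zMP mean, with the lowest and highest of the 4 array pairs in brackets. A gene is called when all 4 pairs differ by at least 1, that is 2-fold, in one direction, which is a rule of size with no p-value behind it. Across all 8796 genes the rule called 690 higher in zSP, or 7.84%, and 254 higher in zMP, or 2.89%, and the median difference was -0.20, which cyclic loess normalization shifted to 0.02. The 49 control probe sets for sequences that zebrafish do not carry reached a group mean of 6.15. Levels up to this blank range are no evidence of a transcript (its top would be 5.24 without the EGFP control, which alone set the top). Their median difference was -0.38, with 48 of the 49 lower in zSP, and the GAPDH control for the 3′ end was brighter than the one for the 5′ end by 3.94 in zSP and by 3.09 in zMP.

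The cell type markers of the 2 pools differed widely. Their lists were drawn up with earlier results of these arrays known, so the counts are not independent evidence. They stand beside 7.84% of all genes called higher in zSP and 2.89% called higher in zMP. In the epithelial list 8 of 9 genes were called for zSP, with list means of 9.37 and 9.48 on the zSP arrays against 4.01 and 4.14 on the zMP arrays, and the junction and keratin genes epcam, cldnb and krt18a.1 were within the blank range in zMP. Of the 5 stroma and smooth muscle genes that are no members, 4 were called higher in zSP, 2 of them within the blank range in both pools. None of 8 pan-leukocyte genes was called higher in zSP and 2 were called higher in zMP, with list means between 9.16 and 9.23 on the zSP arrays and between 10.23 and 10.33 on the zMP arrays. Of the 6 B and early lymphoid genes, in pools whose gate is called lymphoid, only the kinase gene btk passed the blank range, with means of 8.33 in zSP and 7.61 in zMP. The means of pax5, rag1 and rag2 lay within it in both pools, and those of ikzf1 and blnk passed it in zMP, at 5.55 and 5.79, if the EGFP control is left out of the range. Both T and NK cell genes measured were called higher in zMP, where the cytotoxic peptide gene nkl.4 lay above that range. All 7 stress and immediate early genes were called higher in zSP. Calls for zSP were also made for 4 of 6 kidney tubule and 2 of 4 endothelial genes. Of the genes so called, only cdh17 of the tubule list and cav1 of the endothelial list had a mean that passed the blank range. The zSP means of slc13a1, hnf1bb, pax2a and kdrl, from 5.47 to 5.83, would pass it only without the EGFP control. The remaining tubule genes, slc12a3 and pax8, had the opposite sign, at -0.93 and -0.78. No call for zSP was made for 6 B and early lymphoid or 2 thrombocyte genes. Neutrophil and macrophage genes, 5 and 3 in number, each had 1 call in either direction, and 1 of 4 red cell genes was called for zMP. The neutrophil gene called for zMP, ncf4, lay within the blank range on all arrays. In sorted pools such as these, fewer cells of a type and less RNA per cell cannot be told apart. The part of these differences in the results below was not tested.

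Among the 48 members, 11 were called for zSP, 3 were called for zMP and 34 were not called. The shares were 22.9% and 6.25% of the members, beside 7.84% and 2.89% of all genes. At a size of 1.5-fold 15 and 7 members were called, beside 11.6% and 9.65% of all genes. At 3-fold 8 and 2 were, beside 4.5% and 0.693%, and by the difference of means alone 15 and 6 were, beside 14.2% and 9.22%. The median difference of the members was 0.25 (0.13 to 0.32), against -0.20 for all genes. Without zSP replicate 1 it was -0.0040, against -0.19 for all genes, so its size depends on that array. Only 20 members passed the blank range in at least 1 pool. Of the 11 called for zSP, 8 were above that range in zSP and 10 were within it in zMP, where background fluorescence may set their level. The zMP means of socs3b, socs1a, nfkbib and cxcl12a would pass the range without the EGFP control.

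Of the 5 roles, the inhibitors had the highest share of calls. In zSP 5 of the 9 inhibitor genes were called higher and in zMP none was, beside 7.84% and 2.89% of all genes. The median difference of the 9 was 1.37 (1.07 to 1.77). Of the 5 called, 4 had a zMP mean within the blank range, and 1 of these, cishb, lay within it in both pools. Ligands were divided, with 4 of 15 called higher in zSP, 1 called higher in zMP and a median of -0.42 that was 0.087 without zMP replicate 2. Receptors were called at about the rate of all genes, 1 of 11, with a median of -0.10 that was 0.22 after cyclic loess and 0.028 after a second quantile normalization. Of 7 kinases and transcription factors, 1 was called, higher in zMP, with a median of -0.26 that was 0.17 without zMP replicate 1 and 0.033 without the shared-sequence probe set that alone measures stat3.

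**Figure D1:**
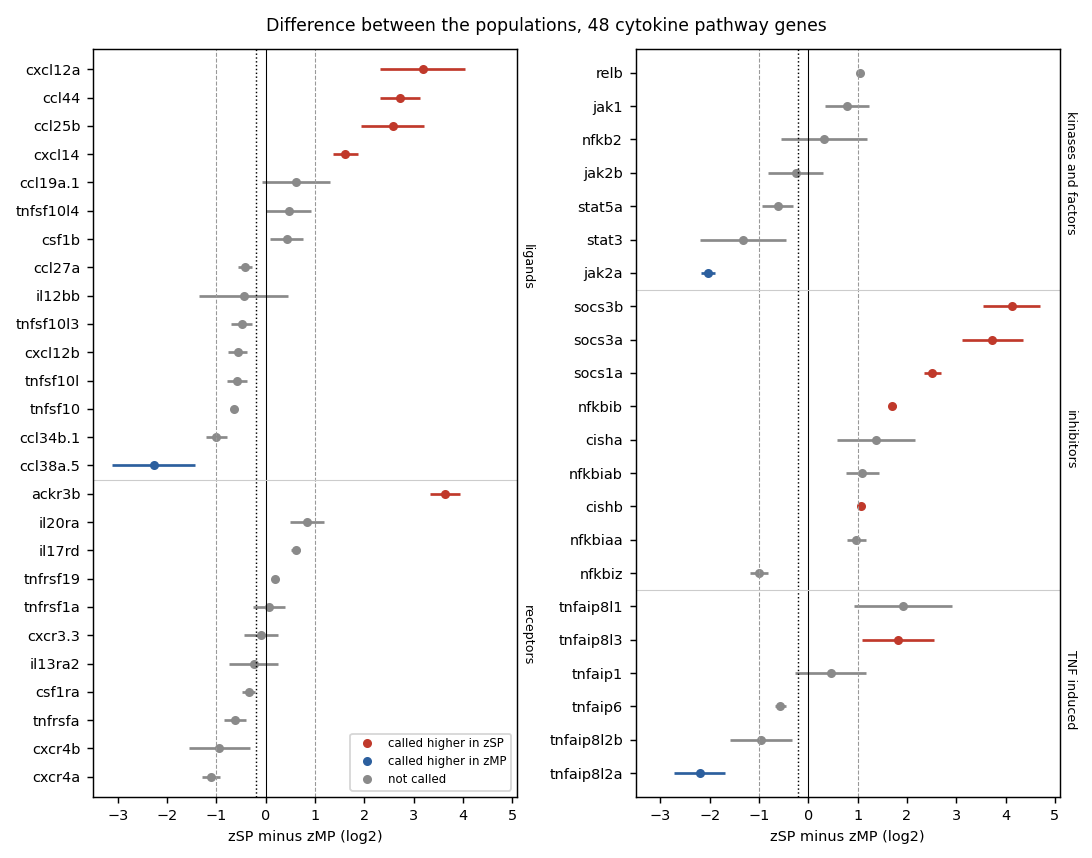
Difference of each of the 48 members, zSP minus zMP on the log2 scale, by role, where points are the difference of means and lines span the 4 array pairs. Dashed lines mark a 2-fold difference, the dotted line marks the median of all genes at -0.20, and the inhibitors socs3b, socs3a and socs1a lie farthest to the right of their panel.

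The suppressor of cytokine signalling genes were the members with the highest differences on the JAK-STAT side. Socs3 proteins, which in mammals block signals of the IL-6 family and of G-CSF and are themselves induced by STAT3, are encoded in zebrafish by a duplicate pair. The level of socs3a was 11.03 and 10.83 on the zSP arrays, against 6.68 and 7.72 on the zMP arrays. The groups lay far apart, and both means stood above the blank range. Its difference was 3.73 (3.11 to 4.35), that is 13.3-fold, and ranked 95 among all genes. For socs3b the levels were 9.68 and 9.35 in zSP, against 5.81 and 4.98 in zMP. The groups again lay far apart, with both zMP arrays within the blank range. The measured difference of socs3b was 4.12 (3.54 to 4.70), and background fluorescence may set its zMP side. Its zMP mean of 5.39 would pass the range if the EGFP control were left out.

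Their relative socs1a restrains interferon signals in mammals. It was measured by 2 probe sets, of which the brighter had levels of 7.85 and 8.19 in zSP, against 5.51 and 5.50 in zMP. The difference was 2.52 (2.34 to 2.70), and the groups did not overlap. Its other probe set, with a difference of 2.22 (1.74 to 2.70), was called too. On both probe sets the zMP arrays lay within the blank range, as did 1 zSP array of the other probe set, at 5.93.

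The duplicates cisha and cishb encode the SOCS relative that STAT5 induces in mammals. The levels of cisha were 7.54 and 6.27 in zSP, against 5.38 and 5.68 in zMP. The difference was 1.37 (0.58 to 2.16), and the gene was not called because the zSP arrays lay far apart, although both were above the zMP arrays. For cishb, with 4.54 on both zSP arrays and 3.47 on both zMP arrays, the difference of 1.07 (1.06 to 1.07) just passed the rule. All its levels lay within the blank range. Together, 4 of the 5 socs and cish genes measured were called higher in zSP, beside 7.84% of all genes, and the fifth had the same sign. Of the 4 called, 3 had a zMP mean within the blank range, and 1 of these, cishb, lay within it in both pools. On the same arrays the stress and immediate early genes had a median difference of 1.89.

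The IkB genes showed smaller differences than the socs3 pair. The IkB-beta gene nfkbib had levels of 7.86 and 7.80 in zSP, against 6.17 and 6.08 in zMP, a difference of 1.70 (1.64 to 1.77). It was the IkB gene called, with a zMP mean at the edge of the blank range. The IkB-alpha duplicates, which NF-kB itself induces, were well above the blank range in both pools. The levels of nfkbiaa were 11.49 and 11.41 in zSP, against 10.63 and 10.33 in zMP. Those of nfkbiab were 10.51 and 10.83 in zSP, against 9.75 and 9.40 in zMP. In both genes every zSP array lay above every zMP array. The differences, 0.98 (0.78 to 1.17) for nfkbiaa or 1.97-fold and 1.09 (0.76 to 1.43) for nfkbiab or 2.13-fold, did not reach the size of a call in all 4 pairs. After cyclic loess both were called, at 1.39 and 1.45. The nuclear IkB relative nfkbiz, which in mammals can help NF-kB to switch on genes, had the opposite sign, with 4.55 and 4.35 in zSP against 5.54 and 5.37 in zMP, all within the blank range.

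**Figure D2:**
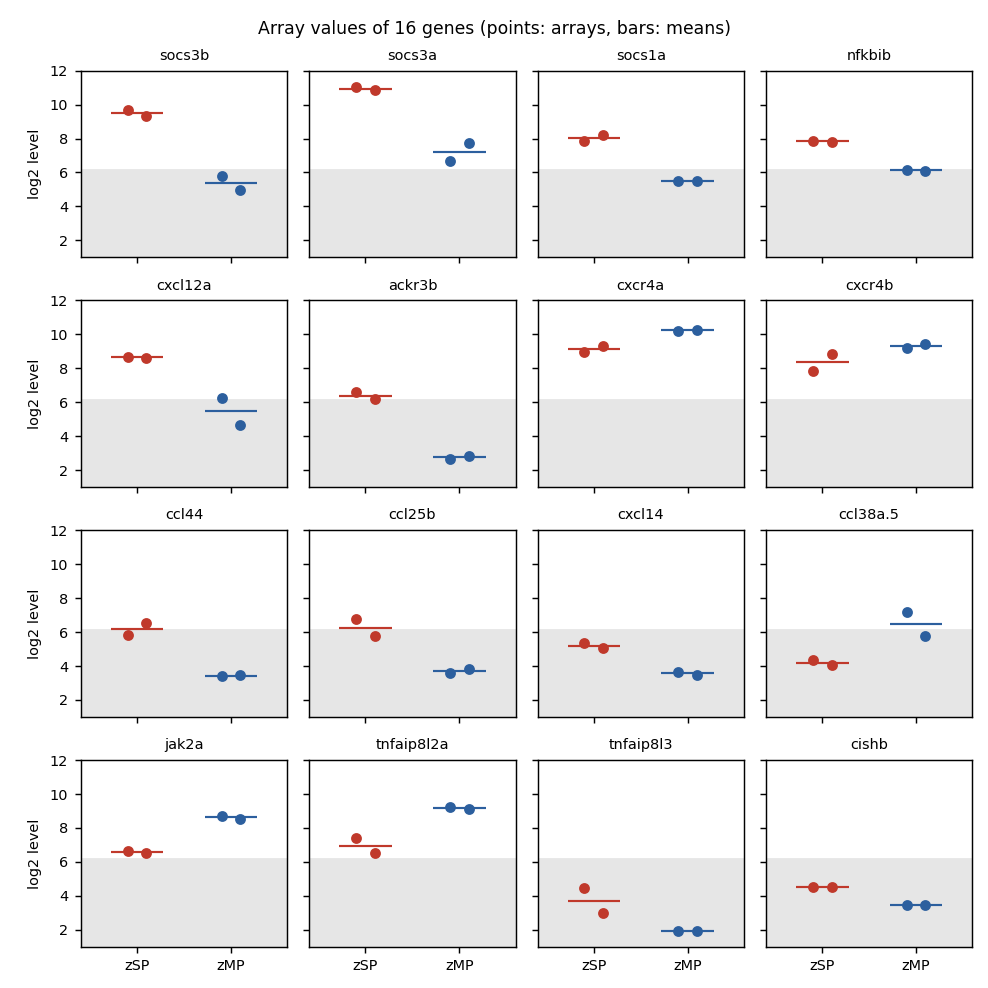
Log2 level of 16 genes on each array, zSP left and zMP right, where points are arrays, bars are means of 2 arrays and grey marks the blank range up to 6.15. The socs3a and socs3b points of zSP lie at 9.35 or above, jak2a and tnfaip8l2a are brighter in zMP, and 3 of the 4 zMP points of cxcl12a and ackr3b lie within the blank range.

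Of the kinases and transcription factors through which these signals run, none was called higher in zSP on the values as deposited. The kinase gene jak2a, whose mammalian counterpart serves the receptors for erythropoietin and thrombopoietin, had levels of 6.64 and 6.54 in zSP, against 8.71 and 8.54 in zMP. The groups did not overlap and the arrays of a pool nearly coincided. Its difference of -2.03 (-2.17 to -1.90), that is 4.09-fold higher in zMP, was called, with both means above the blank range. The duplicate jak2b stood at 5.85 and 6.12 in zSP, against 6.66 and 5.82 in zMP, where the groups overlapped. The widely used kinase jak1 had 9.81 and 9.74 in zSP, against 8.58 and 9.41 in zMP. Its arrays did not overlap, but the difference of 0.78 (0.33 to 1.24) was not called. On the same arrays the pan-leukocyte genes had a median difference of -1.12.

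Both STAT genes measured were dimmer in zSP, as were 5362 of all 8796 genes, and neither was called. For stat3, which acts downstream of IL-6 family receptors, the levels were 3.95 and 3.73 in zSP, against 5.93 and 4.41 in zMP, all within the blank range. The difference of -1.33 (-2.20 to -0.46) was -0.57 without zMP replicate 1 and -2.09 without zMP replicate 2, so its size rests on single arrays. For stat5a the levels were 5.31 and 5.81 in zSP, against 6.25 and 6.11 in zMP, a difference of -0.62 (-0.94 to -0.30). Its zSP mean of 5.56 lay within the blank range, and its zMP mean of 6.18 barely passed it. The controls of that range had a median difference of -0.38. The calls of socs3a and socs3b stood beside a stat3 level within the blank range on all arrays. That level was read by only 1 probe set, of shared sequence, and a link between these values was not tested.

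Of the NF-kB subunits, the 2 measured belong to the non-canonical branch. The gene relb had 5.58 and 5.67 in zSP, against 4.55 and 4.59 in zMP, a difference of 1.05 (0.99 to 1.11). It missed the rule on 1 array pair by little and was called after array median centring and after cyclic loess, but its levels lay within the blank range. The levels of nfkb2 overlapped between the groups, with 6.47 and 5.54 in zSP against 6.09 and 5.28 in zMP.

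Chemokine ligands included the secreted members with the highest differences. In zSP 4 of the 9 genes were called higher, and in zMP 1 was, beside 7.84% and 2.89% of all genes. All 4 called higher in zSP had a zMP mean within the blank range. The gene cxcl12a encodes the ligand of Cxcr4 that guides migrating cells in the zebrafish embryo and that stromal cells of blood-forming niches make. Its levels were 8.68 and 8.60 in zSP, against 6.28 and 4.63 in zMP. The groups did not overlap, though the zMP arrays differed from each other by more than the zSP arrays did. The difference was 3.18 (2.32 to 4.04), and 2.01 when it was averaged with the second probe set, which lies within the blank range and showed 0.84 (-0.09 to 1.77). On the same arrays, the smooth muscle genes tagln and acta2 differed by 6.47 and 5.46. Both belong to the 5 stroma and smooth muscle genes that are no members. The list means of these 5 were 7.70 and 8.06 on the zSP arrays, against 3.82 and 4.15 on the zMP arrays. The duplicate cxcl12b had levels of 1.92 and 1.91 in zSP and 2.29 and 2.66 in zMP, so that no transcript was shown in either pool.

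The receptors for Cxcl12 were divided. The signalling receptors cxcr4a and cxcr4b stood above the blank range in both pools and were dimmer in zSP. The levels of cxcr4a were 8.97 and 9.29 in zSP, against 10.22 and 10.26 in zMP, a difference of -1.11 (-1.28 to -0.93), or 2.15-fold higher in zMP. For cxcr4b they were 7.85 and 8.86 in zSP, against 9.19 and 9.41 in zMP, a difference of -0.95 (-1.56 to -0.33). Both groups were apart in each gene, but neither gene was called. Without zSP replicate 2 both were, at -1.27 and -1.45, whereas without zSP replicate 1 they stood at -0.95 and -0.44, and after cyclic loess at -0.78 and -0.70, with no call. The atypical receptor gene ackr3b, whose protein takes up Cxcl12 and clears it from tissue in the zebrafish embryo, went the other way. Its levels were 6.59 and 6.17 in zSP, against 2.65 and 2.84 in zMP. The groups lay far apart, but the zSP mean of 6.38 is just above the blank range and both zMP arrays are far within it. The measured difference was 3.63 (3.33 to 3.93), and background fluorescence may set its zMP side. All 8 pan-leukocyte genes had a negative difference on these arrays, as had 5362 of all 8796 genes. For spi1b, at -0.014 (-0.096 to 0.067), the groups overlapped. A link between these genes and the receptor values was not tested.

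The CC chemokine genes were called in both directions. The gene ccl25b, a chemokine that draws lymphoid progenitors to the thymus in vertebrates, had 6.79 and 5.75 in zSP, against 3.58 and 3.80 in zMP, a difference of 2.58 (1.94 to 3.21). For ccl44 the levels were 5.81 and 6.53 in zSP, against 3.39 and 3.48 in zMP, a difference of 2.74 (2.33 to 3.14). Their zSP means, 6.27 and 6.17, barely passed the blank range. The CXC gene cxcl14, which epithelia make in mammals, had 5.34 and 5.04 in zSP, against 3.67 and 3.48 in zMP, a difference of 1.62 (1.37 to 1.86) within the blank range. The epithelial gene list had a median difference of 6.04 on the same arrays.

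The ligand called higher in zMP was ccl38a.5, with levels of 4.33 and 4.07 in zSP, against 7.18 and 5.76 in zMP. The groups did not overlap, and the difference was -2.27 (-3.11 to -1.43), with a zSP mean within the blank range. The remaining chemokine ligands were not called. The levels of ccl19a.1, whose mammalian counterpart acts on lymphocytes and dendritic cells, overlapped between the pools, with 5.64 and 6.15 in zSP against 5.72 and 4.85 in zMP. The differences of ccl34b.1 and ccl27a were -0.997 (-1.20 to -0.79) and -0.42 (-0.57 to -0.27), both within the blank range. The difference of ccl27a was close to the -0.38 of the blank range's controls, given above.

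**Figure D3:**
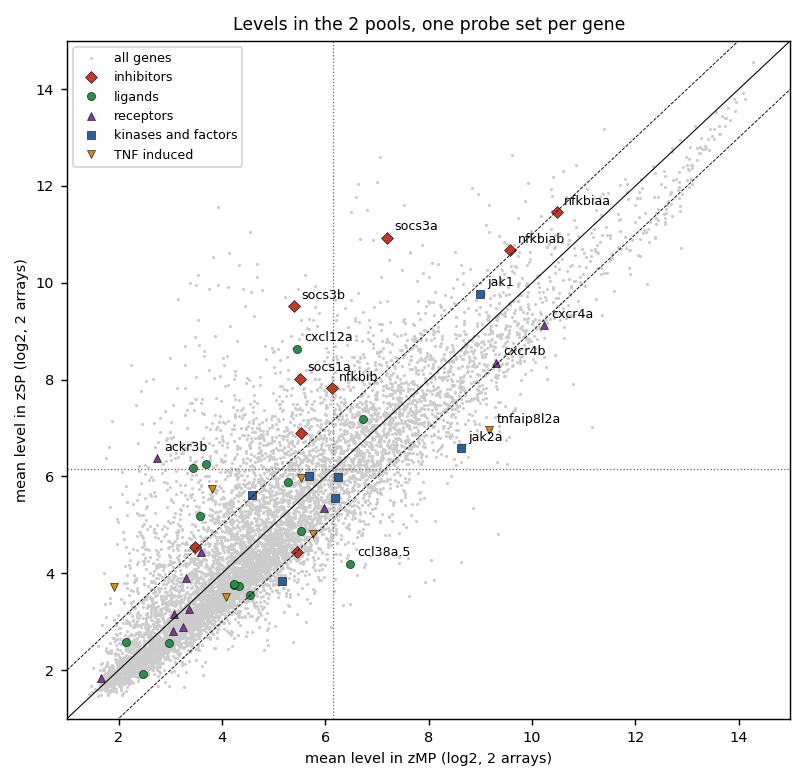
Mean log2 level of each gene on the 2 zSP arrays (y axis) and the 2 zMP arrays (x axis), with members coloured by role and all 8796 genes in grey. The solid line is equality, dashed lines mark a 2-fold difference and dotted lines the top of the blank range at 6.15, below which 28 of the 48 members lie in both pools.

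Interleukins, colony stimulating factors and their receptors gave no call. The macrophage growth factor gene csf1b, the interleukin 12 subunit gene il12bb and 4 receptor genes were within the blank range on either side. Among the receptors, il20ra, a receptor chain of the interleukin 10 family, had 4.15 and 4.72 in zSP, against 3.53 and 3.65 in zMP. The gene il17rd, known as an antagonist of FGF signals, had 3.90 and 3.91 in zSP, against 3.39 and 3.21 in zMP. In both the zSP arrays lay above the zMP arrays. The interleukin 13 decoy receptor gene il13ra2 overlapped between the pools, at -0.25 (-0.74 to 0.25), and turned to 0.02 after cyclic loess. The macrophage receptor gene csf1ra had 2.78 and 3.02 in zSP, against 3.24 and 3.25 in zMP, so these arrays do not show its transcript in either pool. The lymphocyte chemokine receptor relative cxcr3.3 overlapped as well, at -0.10 (-0.44 to 0.24), and turned to 0.22 after cyclic loess.

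TNF ligands and receptors were also not called. The TRAIL relatives, ligands that can trigger cell death, had differences of -0.64 (-0.67 to -0.61) for tnfsf10, -0.58 for tnfsf10l and -0.48 for tnfsf10l3, all within the blank range. Only tnfsf10l4 was above that range, with 7.02 and 7.37 in zSP, against 7.01 and 6.45 in zMP, a difference of 0.46 (0.0042 to 0.93). Of the receptors, tnfrsfa had 5.22 and 5.47 in zSP, against 5.88 and 6.07 in zMP. Its 3 probe sets all had zMP arrays above zSP arrays, as had 41% of all genes, and all 3 lay within the blank range. Their differences of -0.63, -0.45 and -0.36 stand beside the -0.38 of the blank range's controls. The TNF receptor gene tnfrsf1a overlapped between the pools at 0.07 (-0.26 to 0.40), and tnfrsf19 had levels under 2 on all 4 arrays.

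Genes with a tnfaip symbol, grouped as TNF induced by that symbol alone, were called in both directions. The gene tnfaip8l2a, whose mouse counterpart restrains T cell and Toll-like receptor responses, had levels of 7.40 and 6.53 in zSP, against 9.24 and 9.09 in zMP. The groups did not overlap and both means were above the blank range. Its difference of -2.20 (-2.72 to -1.69), or 4.61-fold higher in zMP, was called. The duplicate tnfaip8l2b had the same sign, -0.95 (-1.58 to -0.32), within the blank range and without a call. Their relatives tnfaip8l1 and tnfaip8l3 had the opposite sign. The levels of tnfaip8l1 were 5.50 and 5.96 in zSP, against 3.05 and 4.58 in zMP, a difference of 1.92 (0.93 to 2.91) that missed the rule on 1 array pair. For tnfaip8l3 they were 4.44 and 3.00 in zSP, against 1.90 and 1.91 in zMP, a difference of 1.82 (1.09 to 2.54) that was called and was 1.095 without zSP replicate 1. All these levels lay within the blank range. The ubiquitin ligase adaptor gene tnfaip1 overlapped between the pools, and the matrix-binding gene tnfaip6 stood at -0.57 (-0.68 to -0.45), within the blank range.

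Duplicate pairs from the fish genome mostly had differences of the same sign. Over all 8796 genes 3434 differences were positive and 5362 negative, so unrelated genes often share a sign too. Whether duplicates do so more often was not tested. Of 7 pairs in which both copies were measured, 6 had the same sign, namely socs3a and socs3b, cisha and cishb, nfkbiaa and nfkbiab, cxcr4a and cxcr4b, jak2a and jak2b, and tnfaip8l2a and tnfaip8l2b. Among these, cishb and tnfaip8l2b lay within the blank range on all arrays, and the groups of jak2b overlapped. In 4 pairs the differences of the copies were at most 0.39 apart. Those of jak2a and jak2b were 1.78 apart, and jak2b turned to 0.17 without zMP replicate 1. The pair cxcl12a and cxcl12b had opposite signs, 3.74 apart, with cxcl12b within the blank range.

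Pathway genes outside these families were counted as a list of 103 symbols, of which 49 had a probe set of their own. Of these, 11 were called for zSP and none for zMP, beside 7.84% and 2.89% of all genes. All 11 were among the 21 output genes, those that STATs, NF-kB or related factors can switch on, whose median difference was 1.12 (1.01 to 1.27). The called outputs junba and junbb were also counted in the stress and immediate early list. None of the 3 ligands, 3 receptors, 14 adaptors and kinases and 8 restraints was called. The list was drawn up with earlier results of these arrays known, and its direction is not independent evidence.

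Of the 11 output genes called, 3 had a zMP level within the blank range. The matrix metalloproteinase mmp9 had 9.64 and 9.98 in zSP, against 5.29 and 3.82 in zMP, a difference of 5.25 (4.35 to 6.15). Its relative mmp13a had 12.21 and 11.94 in zSP, against 7.58 and 6.42 in zMP, a difference of 5.07 (4.35 to 5.79). In both genes the groups lay far apart. The choice of the genes that follow was made with their values known. The survival kinase pim1 and the anti-apoptotic mcl1b, textbook targets of STAT signals in mammals, differed by 2.08 (1.83 to 2.34) and 2.57 (1.95 to 3.20). The factor gene cebpd, which STAT3 induces in mammals, stood at 3.57 (3.16 to 3.98), and the interferon regulatory factor irf1b at 1.31 (1.21 to 1.42). Of the 21 output genes, 10 were not called, and 17 had a positive and 4 a negative difference. The output genes cebpb, 0.76 (0.68 to 0.85), and mych, -0.32 (-0.37 to -0.28), were not called. The acute phase gene saa had the opposite sign at -1.47 (-2.03 to -0.92), within the blank range. So had irf1a, the duplicate of irf1b, at -0.53 (-0.82 to -0.24), also within that range. For bcl2l1, pim3 and myca the groups overlapped.

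The upstream genes, picked after their values were seen, often varied between the arrays of a pool. The IkB kinase gene chuk and its regulatory partner ikbkg differed by 1.22 (0.45 to 1.99) and 0.89 (0.25 to 1.52), and the interleukin 1 receptor kinase irak4 by -1.16 (-2.25 to -0.08). All 4 levels of chuk, between 2.08 and 4.07, lay within the blank range. The phosphatase gene ptpn11a, with 7.03 and 7.05 in zSP against 4.56 and 6.65 in zMP, had 1 zMP array that lay far below the other. The cytokine gene mif had 6.25 and 7.50 in zSP, against 8.23 and 7.97 in zMP, without overlap and without a call.

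**Figure D4:**
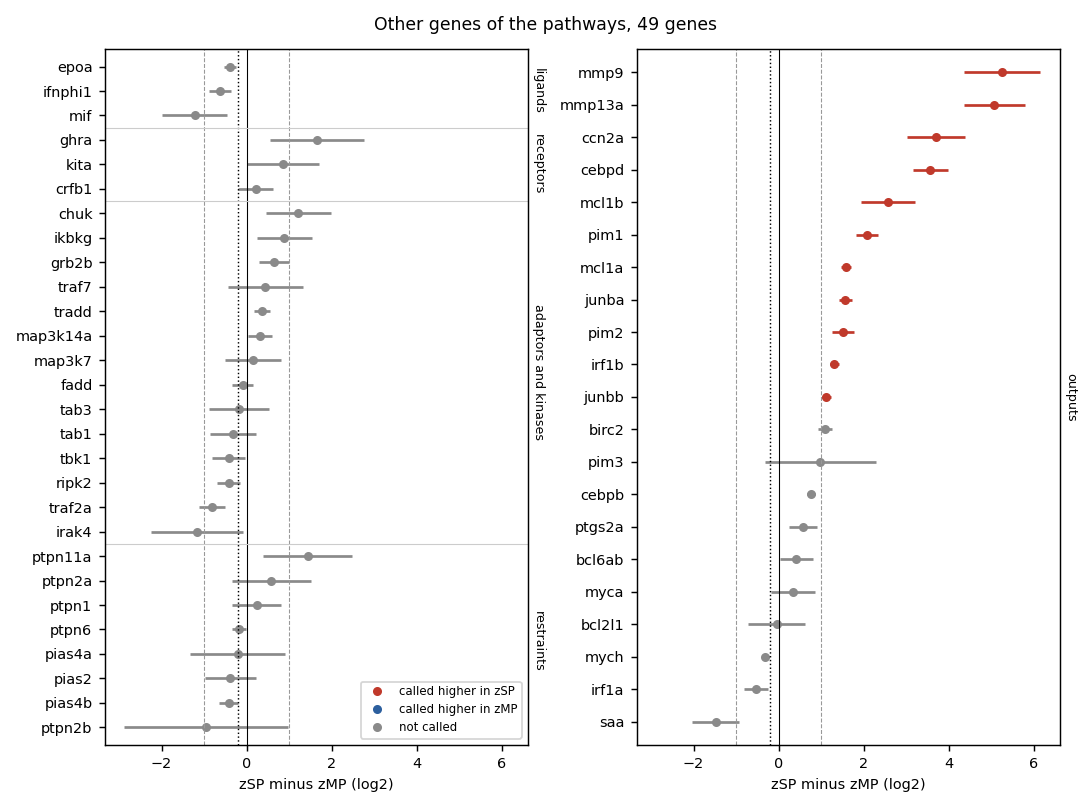
Difference of the 49 other genes of these pathways, zSP minus zMP on the log2 scale, by role, where points are the difference of means and lines span the 4 array pairs. Dashed lines mark a 2-fold difference and the dotted line the median of all genes, and the 11 called genes all lie in the panel of outputs, led by mmp9 and mmp13a.

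In 13 of the 48 members, stat3, jak1, cxcr4b and nfkb2 among them, the arrays of a pool lay at least as far apart as the pool means did. That was so for 0 of the 14 called members, whose choice favours small gaps. The gap measures aliquots of 1 pool and leaves out the spread between pools. The median gap between the arrays of a pool was 0.29 in zSP and 0.22 in zMP, against 0.34 and 0.28 over all genes. Of the 48 members, 22 had both zSP arrays above both zMP arrays, 18 had both zMP arrays above both zSP arrays and 8 overlapped, where 21.7% and 41% of all genes fell into the first 2 classes. Of the genes looked for by name, il1b, tnfa, cxcl8a, csf3r, stat1a, nfkb1 and rela had no probe set annotated to them alone and were not analysed here.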

How the data were processed

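The deposited log2 expression values were made by the authors with RMA in the R package affy, per the submitters' processing notes, for 15617 probe sets on 4 arrays. Their versions and settings are not stated there. RMA equalizes the distributions between arrays, so differences are relative to the bulk of the probe sets. Per the labels' protocols amplification took 2 rounds of in vitro transcription, a step that favours 3′ ends. All 115 control probe sets were left out of the comparisons. Of the rest, 10795 carried 1 gene in the platform annotation and 135 carried several, which were not named. Symbols were compared with the GRCz12tu gene table, where 8723 of 8796 gene identifiers were found. None of the 48 members' symbols had changed.

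Differences and array pairs were computed in Python 3.11.15 with pandas 2.3.3. The rule of size was tried on simulated data, with planted differences well above the size of a call and noise set from the zSP arrays. No spread between pools was simulated, so the outcome says nothing of false calls between pools. Members, lists and tests were chosen with earlier results of these data known. Every called member was to be named, as were members above the blank range, the 2 with the largest differences of each class, and 18 chosen genes, of which 11 were measured. Of the other pathway genes that were called, the 2 with the largest absolute difference of a role were to be named. Any other was picked after its values were seen. The number of arrays, 2 per pool, and the lack of a second pool limit the precision. Alternatives were other sizes, each array left out, median centring, cyclic loess and quantile normalization (limma 3.58.1 in R 4.3.3), averaged probe sets, no shared-sequence probe sets, a filter on low values and updated symbols.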

Additional observations from a re-analysis of the deposited data

How the results depend on the processing

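No called member lost its call under the normalizations or with averaged or without shared-sequence probe sets. At 3-fold cishb, cxcl14, tnfaip8l3 and ccl38a.5 lost theirs, which left 8 members called for zSP and 2 for zMP, with 0 ligands for zMP and 6 of the other pathway genes, all outputs, higher in zSP. At 1.5-fold 15 members were called for zSP and 7 for zMP, the zMP calls including 3 ligands, 1 receptor and 1 inhibitor, and 1 of the kinases and factors, relb, was called higher in zSP. These 2 sizes called 11.6% and 4.5% of all genes higher in zSP. By the difference of means alone 6 members were called higher in zMP, with 1 inhibitor, 1 receptor and 2 kinases and factors, and again relb, 1 factor, was called higher in zSP. Median centring and cyclic loess each called 1 factor, relb, higher in zSP too.

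After cyclic loess the medians were 0.36 for the members, -0.12 for the ligands and 0.22 for the receptors. Over members that pass the blank range in at least 1 pool, a filter that favours large differences, they were 1.03 for 20 members, 2.58 for 5 ligands, -0.95 for 3 receptors and 1.70 for 7 inhibitors. Without the EGFP control in that range, an alternative chosen after seeing the data, they were 0.61 for the members, 0.61 for the ligands and -0.79 for the receptors. The cause of these shifts was not tested.

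Leaving out 1 array leaves 2 of the same pairs to pass, so it can only add calls. The members called higher in zSP then numbered 12 to 15 and those higher in zMP 3 to 5, beside 11% to 12.5% and 6.05% to 6.72% of all genes. The median ranged from -0.0040 to 0.21 for the members, from -0.36 to 0.087 for the ligands, from -0.13 to 0.12 for the receptors and from 1.25 to 1.73 for the inhibitors. The calls higher in zMP ranged from 1 to 2 for ligands, 0 to 2 for receptors, 0 to 1 for inhibitors and 1 to 2 for kinases and factors. Those higher in zSP ranged from 1 to 2 for receptors and 0 to 2 for kinases and factors. Among single members not called, the sign turned for cxcr3.3 at 0.22 and il13ra2 at 0.02 after cyclic loess, and for tnfrsf1a, nfkb2, jak2b and il12bb with 1 array left out. No paired analysis was possible because each population is 1 RNA pool and the results come from no test. The absence of detection calls limits what can be said of dim members.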
